A study of Saccharomyces cerevisiae with 9 samples.

Results

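The comparison set chromatin recovered with Rvb1 against chromatin recovered with Pgk1, to ask which promoters and gene bodies carried more or less of the ATPase than of a control protein. Its members were the 2 Rvb1 pulldowns and the 2 Pgk1 pulldowns, 4 of the 9 libraries of the study. All 7036 promoter windows and all 7036 gene body windows of 500 bp were used. In each strain the named protein carried a tandem affinity purification (TAP) tag. Per the labels every strain was Saccharomyces cerevisiae W303, was grown at 30 °C to log phase and was then starved of glucose for 10 min, so the Pgk1 control was starved too and no fed cells entered the comparison. The tag was bound by rabbit IgG in sonicated lysates. Separate cultures are not stated for pulldowns of the same strain, and the p-values below may therefore reflect technical spread only.

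Rvb1 and its partner Rvb2 are AAA+ ATPases that assemble into a mixed ring. In yeast that ring is a core of the INO80 and SWR1 chromatin remodelling complexes, which act on nucleosomes beside promoters, and of the R2TP complex, which helps to assemble other protein machines. Pgk1 is phosphoglycerate kinase, an abundant glycolytic enzyme of the cytoplasm with no known role in chromatin.

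Promoter windows held 1993420 and 1278825 counts in the Rvb1 pulldowns, and 806134 and 2516799 in the Pgk1 pulldowns. At gene bodies the totals were 1568654 and 1154921 for Rvb1 and 782398 and 2533445 for Pgk1. The median promoter window held 264 and 167 counts for Rvb1 and 99 and 345 for Pgk1, which gives a counting error of 5.38% to 10.1% per window and library. Levels are given below as CPM, counts adjusted for library size (per-million unit) after TMM scaling within each table. A window was called when edgeR's quasi-likelihood test gave a Benjamini-Hochberg adjusted p under 0.05 over all windows of its table.

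The inputs, chromatin taken before the pulldown, differed between the Pgk1 strain and the Rvb strains at some loci. In the library labelled as input of the Pgk1 strain, the gene body windows held 7 counts at MET17 (sulfur amino acid synthesis), 8 at URA3 (uracil synthesis) and 8 at LEU2 (leucine synthesis). The median gene body window of that library held 663. Rvb strain inputs held 615 to 726 counts in those windows. HIS3, for histidine synthesis, held 395 counts in the Pgk1 input against 638 and 625 in the Rvb inputs, while TRP1 held 685 against 670 and 664. As background, full deletions of MET17, URA3 and LEU2 and a partial one of HIS3 are known from the BY strains derived from S288C. W303 carries small mutations in LEU2 and URA3 and keeps MET17. Whether the strains used here differ in background was not tested.

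Other loci lay the opposite way. The promoter window of YNR071C, near the end of chromosome XIV, held 0 and 1 counts in the Rvb1 and Rvb2 inputs and 624 in the Pgk1 input. The gene body of COS12, a gene of a family found at chromosome ends, held 1 and 1 against 652. AIF1, which encodes a mitochondrial cell death effector, held 1 and 4 against 654. Inputs of the Rvb1 and Pgk1 strains differed by over 1.5 times in 41 promoter windows and 33 gene body windows, against 4 and 4 between the Rvb1 and Rvb2 inputs. The tagged protein and the strain background cannot be told apart in this comparison, and results are therefore given separately for windows with like inputs, meaning inputs within 1.5 times.

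Most of the steepest changes between the pulldowns lay in windows with unlike inputs. At promoters 29 of the 41 were called (70.7%), against a background of 6.23% over all windows. At gene bodies it was 31 of the 33 (93.9%), against 1.82%. All 41 and all 33 moved in the direction of their inputs.

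At the MET17 gene body the Rvb1 pulldowns held 109 and 129 CPM and the Pgk1 pulldowns 17.3 and 5.20, a log2 difference of 3.77 (SE 0.40, adjusted p = 1.14e-17). At URA3 the gene body held 147 and 120 CPM against 16.0 and 9.29. At the LEU2 gene body it was 211 and 237 CPM against 23.9 and 39.8. Every Rvb1 library lay far above every Pgk1 library in these windows. Some promoter windows beside them followed: YLR302C, next to MET17, had a log2 difference of 3.39 (SE 0.57), LEU2 1.75 (SE 0.32) and TIM9, next to URA3, 1.42 (SE 0.27). The promoter window of MET17 itself held 363 and 215 counts in the Rvb1 pulldowns and 149 and 221 in the Pgk1 pulldowns. Its inputs held 654 and 318. After scaling, Pgk1 replicate 1 lay above both Rvb1 libraries there and Pgk1 replicate 2 below both.

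In the opposite direction, YNR077C near the end of chromosome XIV held 35.4 and 46.9 CPM in the Rvb1 pulldowns and 302 and 154 in the Pgk1 pulldowns at its promoter, a log2 difference of -2.45 (SE 0.27, adjusted p = 2.45e-16). PRM7, a pheromone-regulated gene, held 22.9 and 46.1 CPM against 139 and 136, and ERR3, an enolase-related gene, 27.9 and 46.1 against 143 and 161. The inputs held fewer reads there as well, 224 counts in the Rvb1 strain against 732 in the Pgk1 strain for PRM7.

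**Figure D1:**
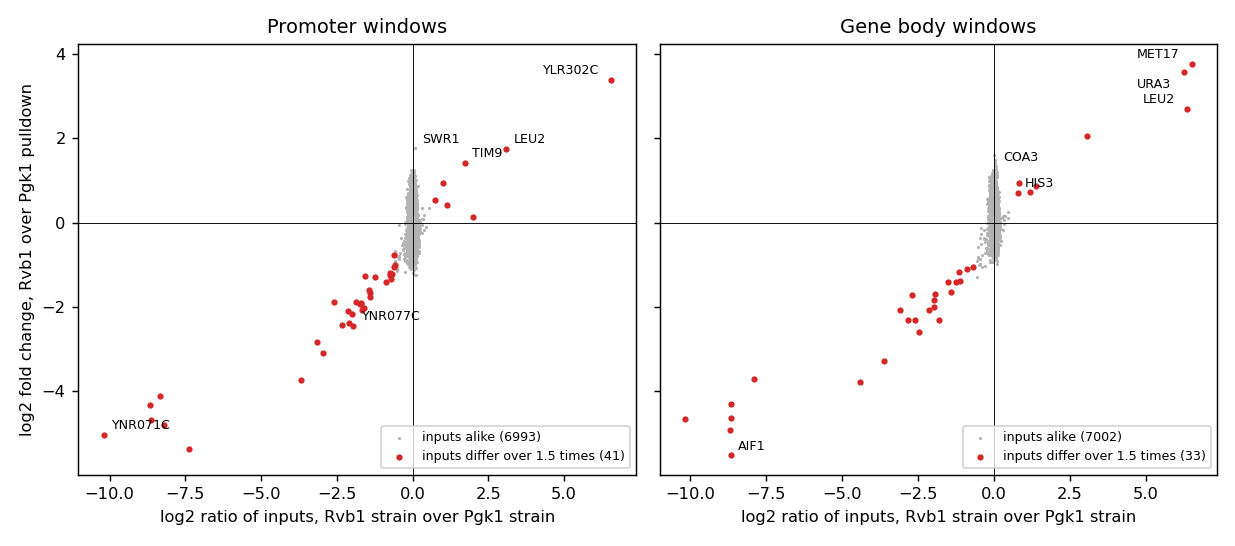
Log2 fold change between Rvb1 and Pgk1 pulldowns (vertical) against the log2 ratio of the inputs of the same strains (horizontal), 1 point per window, promoters left and gene bodies right. The 41 promoter and 33 gene body windows with unlike inputs (red) run along a diagonal, while windows with like inputs form a vertical band at a ratio near 0 that holds SWR1 and COA3.

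Over all 7034 promoter windows tested, 438 were called (6.23%), 146 higher in the Rvb1 pulldowns (2.08%) and 292 lower (4.15%). Of these, 142 higher and 267 lower windows had like inputs. The median log2 difference was 0.70 in the 142, with a range of 0.46 to 1.76, and -0.69 in the 267, with a range of -1.24 to -0.45. The median over all promoter windows was -0.04 and the median SE 0.20. The split between directions depended on scaling and test. It was 242 higher and 217 lower with library totals, 297 and 142 with 1 total for both tables, and 129 and 290 with DESeq2 size factors. DESeq2's own test gave 258 and 15. With 1 total for both tables the median over all promoters lay at 0.06 and over all gene bodies at -0.20.

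The 4 libraries separated by group in nearly every called window. Both Rvb1 libraries lay above both Pgk1 libraries in all 146 windows called higher, and below them in 290 of the 292 called lower. Libraries that do not overlap were also common among windows at large, at 3976 of 7034 promoters (56.5%), 28.4% above and 28.2% below. The 4 pairings of 1 Rvb1 with 1 Pgk1 library gave unequal sizes. At the 142 higher promoters the median log2 difference was 0.96 between both replicates 1, 0.78 between Rvb1 replicate 1 and Pgk1 replicate 2, 0.67 between Rvb1 replicate 2 and Pgk1 replicate 1, and 0.48 between both replicates 2. At the 267 lower promoters the same 4 pairings gave -1.03, -0.78, -0.58 and -0.38.

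Which windows passed rested on single libraries. Without Rvb1 replicate 1, 13 promoter windows were called, and without Pgk1 replicate 1, 38. Without Rvb1 replicate 2 there were 1067, without Rvb2 replicate 2, which shares the estimate of the spread, 230, and the fits without Rvb2 replicate 1 and Pgk1 replicate 2 gave 320 and 479. For 27 called promoters with like inputs, nearly all of them named below, the fits were compared window by window. None was called in all 6 and none changed direction in any.

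**Figure D2:**
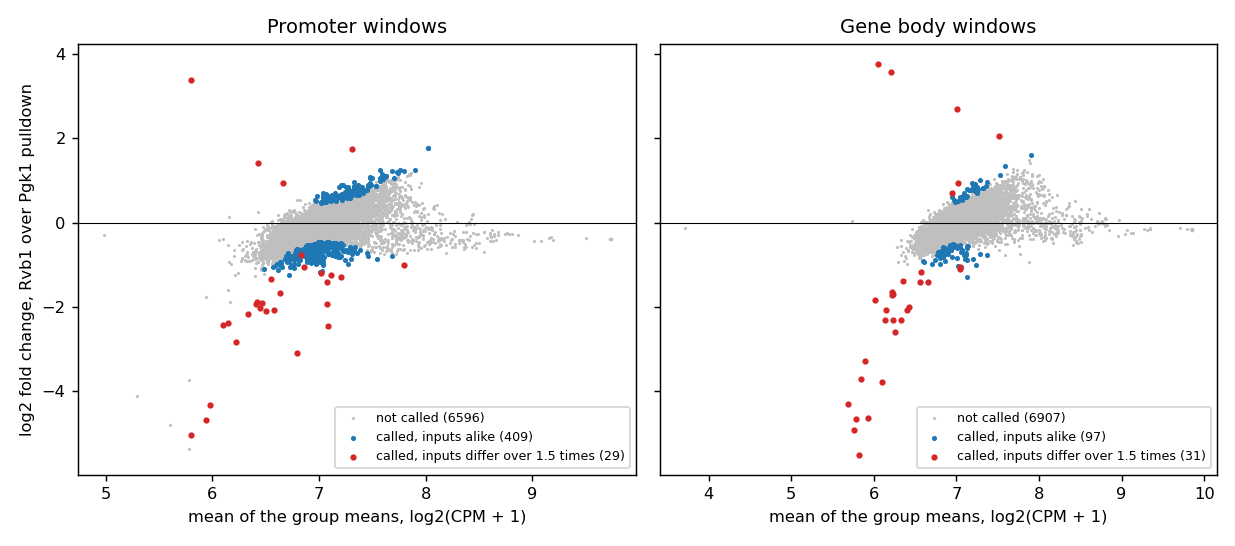
Log2 fold change of Rvb1 over Pgk1 pulldowns (vertical) against the mean level of the window (horizontal, log2 of CPM plus 1), 1 point per window. Called windows with like inputs (blue, 409 promoters and 97 gene bodies) line the upper and lower edges of the cloud, and called windows with unlike inputs (red, 29 and 31) lie mostly outside it.

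The promoter with the widest difference among windows with like inputs was the one shared by SWR1 and RQC1. SWR1 encodes the ATPase of the SWR1 complex, which places the histone variant H2A.Z and contains Rvb1 itself, and RQC1 encodes a component of ribosome quality control. The genes are divergent on chromosome IV, and their promoter windows held the same counts in every library. The level was 426 and 375 CPM in the Rvb1 pulldowns, 504 and 249 in the Rvb2 pulldowns, and 116 and 121 in the Pgk1 pulldowns. Both Rvb1 libraries lay far above both Pgk1 libraries, which lay below the median window of their own libraries (129 and 131). The Rvb1 difference was 1.76 on the log2 scale (SE 0.48, adjusted p = 0.0122), a fold of 3.38, and the inputs were alike at 622 and 622 counts. It ran from 1.65 to 1.84 with each library left out, with adjusted p values up to 0.593, that without Rvb1 replicate 1.

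MRPL8, a protein of the large mitochondrial ribosomal subunit, shares its upstream region with COA3, an assembly factor of cytochrome oxidase. It held 330 and 274 CPM in the Rvb1 pulldowns against 135 and 120 in the Pgk1 pulldowns (log2 1.25, SE 0.39, adjusted p = 0.0313). MGM1, the GTPase of inner membrane fusion, held 294 and 239 CPM against 92.4 and 130 (log2 1.24, SE 0.34, adjusted p = 0.0113). In both windows the lower Rvb1 library lay well above the higher Pgk1 library. PHB2, a prohibitin of the inner membrane, held 262 and 220 CPM against 101 and 124 (log2 1.08, SE 0.28), and its window lies beside that of NAS6, a chaperone of proteasome assembly. QRI5, which acts in the expression of a mitochondrial cytochrome oxidase gene, had a log2 difference of 1.25 (SE 0.42, adjusted p = 0.0495), close to the threshold.

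XRN1, the main cytoplasmic exonuclease that degrades decapped mRNA, held 298 and 231 CPM against 105 and 131 (log2 1.15, SE 0.33, adjusted p = 0.0167). Its divergent neighbour NUP49, a nucleoporin, held 334 and 255 CPM against 114 and 139. SLK19, a kinetochore protein, had a log2 difference of 1.22 (SE 0.40), and UFD2, a ubiquitin chain assembly factor, 1.17 (SE 0.39). In each of these windows both Rvb1 libraries lay above both Pgk1 libraries.

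**Figure D3:**
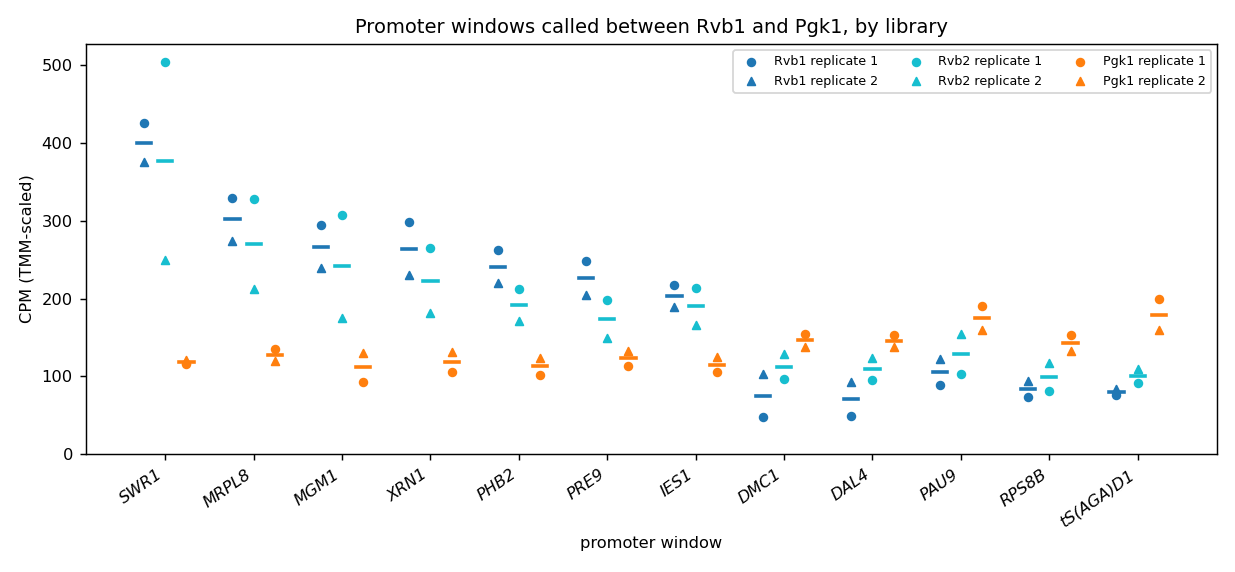
CPM of 12 called promoter windows (horizontal) in each of the 6 pulldowns, circles for replicate 1 and triangles for replicate 2, with a line at the mean of each group. The Rvb1 points (dark blue) lie above the Pgk1 points (orange) in the 7 windows from SWR1 to IES1. They lie below them in the 5 from DMC1 to tS(AGA)D1. Rvb2 replicate 1 (light blue circles) lies mostly within or near the Rvb1 range. Rvb2 replicate 2 (light blue triangles) lies between the Rvb1 and the Pgk1 points in all 12.

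Among the gene lists, promoters of the proteasome, the protease that degrades ubiquitinated proteins, held calls in the higher direction. Of its 33 subunit genes 5 were higher and none lower: RPN6, RPN8 and RPN12 of the lid, and PRE9 and PRE10 of the catalytic core. PRE9 held 248 and 205 CPM in the Rvb1 pulldowns against 113 and 133 in the Pgk1 pulldowns (log2 0.87, SE 0.26, adjusted p = 0.0237), and RPN6 had a log2 difference of 0.99 (SE 0.32). In both, the groups did not overlap. The share called was 15.2%, against 2.08% of all promoters, and the list's median log2 difference was 0.37 against -0.04, with 31 of 33 members above 0. No subunit was called without Rvb1 replicate 1, without Pgk1 replicate 1 or without Rvb2 replicate 2, and 2 were called without Pgk1 replicate 2, while the list's median stayed between 0.26 and 0.46 with each pulldown library left out.

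Of 67 mitochondrial ribosomal protein promoters 3 were higher (4.48%), MRPL8, NAM9 and MRP51, and the list's median was 0.25. The list had 9 higher calls with library totals, 10 with 1 total for both tables and 9 with DESeq2's test. Of 25 genes of the SWR1 and INO80 complexes, which include RVB1 and RVB2, 2 were higher (8%, against 2.08% of all promoters). They were SWR1 and IES1, a subunit of INO80. IES1 held 218 and 189 CPM against 105 and 124, without overlap (log2 0.81, SE 0.25, adjusted p = 0.0259). The median of that list was 0.13. In both lists no member was called without Rvb1 replicate 1, Pgk1 replicate 1 or Rvb2 replicate 2. The 11 histone promoters had a median of 0.39 with no call, and HTZ1, the gene of H2A.Z, held 249 and 204 CPM against 187 and 136 (adjusted p = 0.292). The direction of the medians of these 4 lists was the same under TMM, library totals, DESeq2 size factors and 1 total for both tables.

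Windows called higher lay mostly between divergent genes. Of the 140 whose upstream neighbour is known, 102 belonged to genes that point away from that neighbour, and in 50 of the 102 the neighbour's window was called higher too, so that some calls are the same stretch counted under a pair of names. The share called higher was 3.30% of 3094 divergent windows and 1.30% of 2928 tandem windows, whose upstream neighbour points the same way. Lower calls were 1.33% and 2.46%, or 41 and 72 windows, but 23 and 28 with 1 total for both tables and 3 and 1 with DESeq2's test. Without Rvb1 replicate 1, 1 divergent and 2 tandem windows were called higher, and without Pgk1 replicate 1, 4 and 4. Median log2 differences were 0.08 and -0.06, and the tandem median was 0.05 with 1 total for both tables.

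Promoters of tRNA genes made up much of the lower calls. Of 298 windows whose identifiers have the tRNA form, 89 were lower (29.9%, against 4.15% of all promoters) and none higher, with a median log2 difference of -0.48. The median level was 119 and 139 CPM in the Rvb1 pulldowns, 139 and 142 in the Rvb2 pulldowns, and 200 and 147 in the Pgk1 pulldowns. Pgk1 replicate 1 thus stood above every other library. Without it 3 windows were called lower, and without Rvb1 replicate 1, the lowest library, 2. With those libraries left out the median was -0.29 and -0.35. The lower calls were 44 with 1 total for both tables and 9 with DESeq2's test. The example with the smallest p, tS(AGA)D1, held 75.8 and 83.6 CPM against 199 and 159 (log2 -1.14, SE 0.17, adjusted p = 3.82e-08), with inputs of 430 and 658 counts, just within the limit for like inputs.

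Promoters near chromosome ends also lay lower. Among the 314 windows of the 10 genes nearest each chromosome end, 36 were lower (11.5%, against 4.15% of all promoters). Higher calls were 6 (1.91%, against 2.08%), and 13 of the 36 lower ones had unlike inputs. Without Rvb1 replicate 1 the lower calls were 6, and without Pgk1 replicate 1, 12. The seripauperins, a family of near-identical cell wall proteins at chromosome ends that respond to low oxygen, held 11 lower calls among 29 windows tested (37.9%) and a median of -0.52. PAU9 held 88.3 and 123 CPM against 190 and 160 (log2 -0.73, SE 0.16, adjusted p = 0.00075), and PAU18 84.8 and 118 against 177 and 154. The Pgk1 libraries lay above both Rvb1 libraries in each. Of the 29 windows 4 had unlike inputs, reads of near-identical copies may be shared among members, and without Rvb1 replicate 1 none was called, with a median of -0.30. Without Pgk1 replicate 1, 2 were called.

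Meiosis and sporulation genes, which are silent in growing cells, had the lowest median of the lists, -0.61 over 21 promoters. Lower calls were 2 (9.52%, against 4.15% of all promoters). DMC1, the meiotic recombinase, held 47.9 and 102 CPM in the Rvb1 pulldowns, 96.4 and 128 in the Rvb2 pulldowns, and 155 and 138 in the Pgk1 pulldowns (log2 -0.99, SE 0.21, adjusted p = 0.000556). MSH4, a meiotic crossover factor, held 84.3 and 131 CPM against 200 and 151 (log2 -0.69, SE 0.16). Rvb1 replicate 1 was the lowest library at both, and without it neither was called and the list's median was -0.28. DAL4, the allantoin permease gene, held 48.9 and 92.2 CPM against 153 and 138 (log2 -1.07, SE 0.23). FLO11, a cell surface flocculin, held 41.4 and 86.8 CPM against 107 and 145 (log2 -1.02, SE 0.30).

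Promoters of 137 cytosolic ribosomal protein genes had a median of -0.24, with 2 lower calls (1.46%, below the 4.15% of all promoters), RPS8B and RPL34A, each of which has a near-identical copy elsewhere. RPS8B held 73.8 and 94.6 CPM against 153 and 133 (log2 -0.76, SE 0.22, adjusted p = 0.0218). The list's median level was 174 CPM in Pgk1 replicate 1 and 124 to 137 in the other 5 pulldowns, and its median difference was -0.04 without Pgk1 replicate 1. Neither promoter was called without Rvb1 replicate 1, without Pgk1 replicate 1 or with 1 total for both tables, and 36 were lower without Pgk1 replicate 2. Of 35 ribosome biogenesis promoters 1 was lower (2.86%), NOG2, a GTPase of large subunit assembly (log2 -0.93, SE 0.30). It was not lower in the fits with library totals or 1 total for both tables.

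Over all promoters 6.23% were called. No promoter of the glycolysis, storage carbohydrate, chaperone, oxidative phosphorylation or glucose-repressed lists was called, over 20, 22, 26, 38 and 17 windows. Their medians were 0.17, 0.22, 0.01, 0.23 and 0.02. In the general stress list 1 of 22 was lower (4.55%, near the 4.15% of all promoters). It was GRE1 (log2 -0.78, SE 0.26, adjusted p = 0.0487), and the list's median was 0.27. GRE1 was called in 1 of the 6 fits that leave out a library, and no member was lower with library totals or 1 total for both tables. At glycolysis promoters the median level was 232 and 190 CPM for Rvb1 and 226 and 145 for Pgk1, and the median difference was 0.53 without Pgk1 replicate 1 and -0.15 without Pgk1 replicate 2. At the PGK1 promoter the groups overlapped, with 233 and 222 CPM against 265 and 147 (adjusted p = 0.78). RVB1 and RVB2 promoters had log2 differences of 0.13 (SE 0.17) and 0.26 (SE 0.16), neither called.

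**Figure D4:**
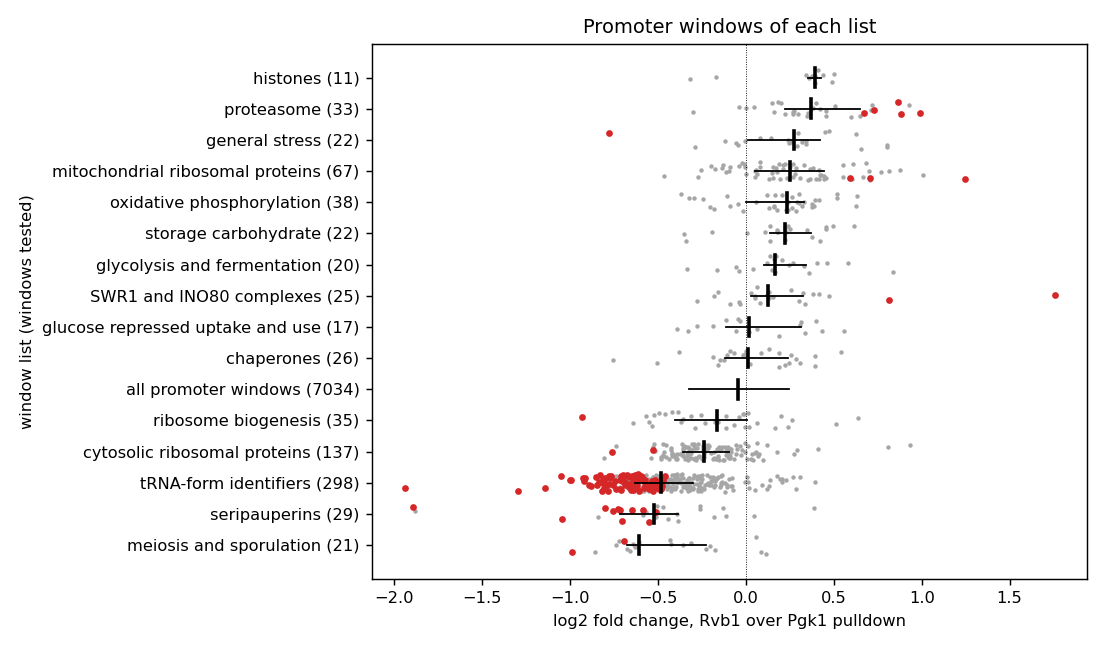
Log2 fold change of Rvb1 over Pgk1 (horizontal) for the promoter windows of each list (vertical, number tested in brackets), with called windows in red, a tick at the median and a line over the middle quartiles. Medians run from -0.61 for meiosis genes to 0.39 for histones, beside -0.04 for all 7034 promoters, whose single points are not drawn.

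Fewer gene bodies than promoters were called in the main fit. That order was reversed at a fold threshold of 1.5, with 20 gene bodies and 11 promoters. It was also reversed without Rvb1 replicate 1 and without Pgk1 replicate 1. In the main fit 128 of 7035 gene bodies tested were called (1.82%), 41 higher (0.583%) and 87 lower (1.24%). Of these, 35 and 62 had like inputs. In all 128 the libraries of the groups did not overlap, as in 3427 of all gene body windows (48.7%, 23.8% above and 24.9% below). An unadjusted p under 0.05 was reached by 20.3% of gene bodies and 26.9% of promoters. Without Rvb1 replicate 1 the count was 27, without Rvb1 replicate 2 it was 904, and with the other pulldowns left out it ran from 45 to 86.

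The widest higher difference among gene bodies with like inputs was at YPR195C (log2 1.61, SE 0.48, adjusted p = 0.0467). COA3, the gene opposite MRPL8, held 325 and 223 CPM in the Rvb1 pulldowns against 108 and 108 in the Pgk1 pulldowns over its gene body (log2 1.34, SE 0.38, adjusted p = 0.0276). DCP1, a subunit of the mRNA decapping enzyme, held 252 and 165 CPM against 89.1 and 116 (2.01-fold higher, log2 SE 0.27, adjusted p = 0.0213). DYN2, a dynein light chain, had a log2 difference of 1.14 (SE 0.33), and TSC3, which stimulates sphingolipid synthesis, 0.97 (SE 0.29). In COA3 and DCP1 the lower Rvb1 library still lay above the higher Pgk1 library. The body of SWR1 held 402 and 284 CPM against 130 and 127 and was not called (log2 1.41, SE 0.46, adjusted p = 0.0806).

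Among lower gene bodies with like inputs, the widest difference was at YNR077C (log2 -1.30, SE 0.15, adjusted p = 5.96e-14). Its inputs of 458 and 717 counts lay just within the limit for like inputs. Of smaller size, SPS4, a sporulation gene, held 58.0 and 82.0 CPM against 134 and 139 (log2 -0.98, SE 0.24, adjusted p = 0.00478). GIN4, a kinase of the bud neck, held 51.5 and 82.8 CPM against 118 and 130 (log2 -0.91, SE 0.27). The groups did not overlap in either. With each library left out in turn, COA3, DYN2, TSC3 and GIN4 were called in 1 of 6 fits, DCP1 in 2 and SPS4 in 3, and none changed direction. Of the 314 bodies nearest chromosome ends 37 were lower (11.8%, against 1.24% of all gene bodies), 15 of them with unlike inputs, and of 29 seripauperin bodies 7 were lower (24.1%). Over the proteasome and mitochondrial ribosomal protein bodies the medians were 0.30 and 0.31 with no call. Bodies of tRNA form had a median of -0.05, with 1 higher (0.336%) and 2 lower calls (0.671%) in 298. Over all gene bodies the shares were 0.583% and 1.24%.

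Set against Rvb2, the partner in the same ring, Rvb1 gave no call at promoters or gene bodies by edgeR's test or by DESeq2's. At promoters 130 windows and at gene bodies 166 had an unadjusted p under 0.05. The same fit called 23 promoters (0.327%) and 29 gene bodies (0.412%) between Rvb2 and Pgk1, a comparison that shares the Pgk1 libraries with that of Rvb1. Most of those gene bodies had unlike inputs, among them MET17, URA3, LEU2, AIF1 and COS12. The 23 promoters are not divided by inputs here. The SWR1 promoter was not called between Rvb2 and Pgk1 (log2 1.67, SE 0.48, edgeR adjusted p = 0.0972). At SWR1 the log2 difference from Rvb2 was 0.09 (SE 0.46), at MRPL8 0.17 (SE 0.38) and at PHB2 0.33 (SE 0.27). At DMC1 it was -0.63 (SE 0.22, unadjusted p = 0.00357). The difference was smaller than its SE at SWR1 and MRPL8 and larger than its SE at PHB2 (edgeR unadjusted p = 0.222). The errors at these 3 windows leave room for sizable differences in either direction.

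Each pulldown was also set against the input of its own strain, with the median over all windows of a library put at 0. At the 142 promoters called higher with like inputs the median log2 ratio was 0.71 and 0.43 in the Rvb1 pulldowns, 0.54 and 0.19 in the Rvb2 pulldowns, and -0.19 and -0.07 in the Pgk1 pulldowns. At the 267 called lower the Rvb1 pulldowns had medians of -0.68 and -0.29, the Rvb2 pulldowns -0.38 and -0.07, and the Pgk1 pulldowns 0.29 and 0.08. The Rvb1 and Pgk1 values describe the windows that those libraries chose. No promoter was called in the fit relative to the own input, which had 1 input per strain. The Rvb2 libraries took no part in the difference between Rvb1 and Pgk1, though they share the estimate of spread, and they lay above their own median at 141 and 128 of the 142 and below it at most of the 267, with 16 and 87 above.

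Libraries differed in how far any window left the input. Over promoters, the log2 ratio to input spanned 1.96 and 1.15 between the 5th and 95th percentiles in the Rvb1 libraries. It spanned 1.55 and 0.91 in the Rvb2 libraries and 1.33 and 0.38 in the Pgk1 libraries. Replicate 1 was the wider of each pair. Pgk1 replicate 2, the deepest pulldown, lay closest to its input, and Pgk1 replicate 1, the shallowest, spread wider than Rvb1 replicate 2. The part of these differences in the calls was not tested.

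**Figure D5:**
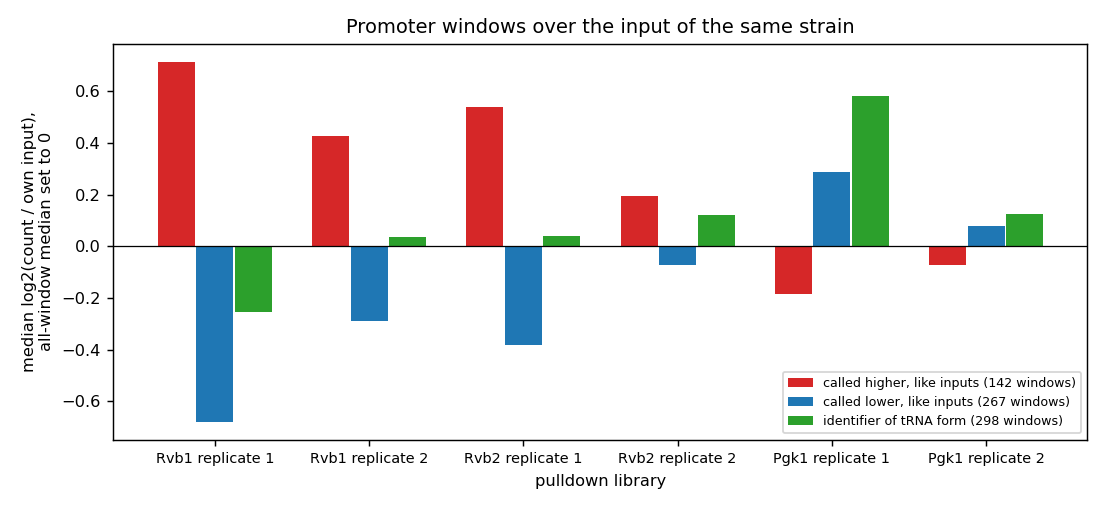
Median log2 ratio of each pulldown to the input of its own strain (vertical, median over all promoter windows of the library at 0) in the 6 pulldowns, for promoters called higher (red) or lower (blue) with like inputs and for windows of tRNA form (green). Rvb libraries are positive at the higher windows and Pgk1 libraries negative, and the tRNA bar is tallest in Pgk1 replicate 1, at 0.58.

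Promoter windows took 54.3% ± 2.42 (SD, n = 2) of the reads in both tables in the Rvb1 pulldowns and 50.3% ± 0.645 (SD, n = 2) in the Pgk1 pulldowns. Both Rvb1 libraries lay above both Pgk1 libraries. The difference of 3.96 percentage points had an exact two-sided permutation p of 0.333, the smallest that 2 against 2 can give. It was 2.25 points without Rvb1 replicate 1 and 5.67 without Rvb1 replicate 2.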

How the data were processed

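Chromatin immunoprecipitation reads were counted in promoter and gene body windows in 9 libraries, 2 pulldowns and 1 input of each tagged strain. The authors deposited raw read counts per window, 1 table per window type. FastQC, Bowtie2, SAMtools, Picard, deepTools and bedtools are named, without roles, in the submitters' processing notes. Not given in the sources used here are the genome build, the window placement and how duplicate or multiply mapping reads were handled. No library held more than 1151 counts in a window, near the 1148 positions that reads of 75 bases can take on both strands, so high counts are compressed. The median promoter stood at 8.62% to 30.1% of that number in the 4 libraries compared. P-values and counting errors cover no other source.

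Counts were tested with edgeR 4.0.16 (R 4.3.3; quasi-likelihood test, filterByExpr with a minimum count of 10, TMM) in 1 fit per table of the 6 pulldowns in 3 groups, with 3 residual degrees of freedom. The spread of a window was taken from the trend over windows of like level. The prior degrees of freedom were estimated as infinite. SE and p therefore do not reflect how far the replicates of a single window lay apart. SE is the log2 difference divided by the square root of F. The inputs were kept out of the fit because their counts lie closer to that number, at 53.6% to 57.1%. Alternatives were library totals, DESeq2 size factors and test (1.42.0), 1 total over both tables, other filters, a fold threshold, other sets of libraries, own-input ratios, like inputs only, a replicate block, a ceiling correction, windows without a divergent neighbour, and each library left out. Sequence features were not analysed here.

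Names and neighbours came from RefSeq's R64 gene table, which matched 6081 of 7036 identifiers; no coordinates are given. Of the others, 299 have the tRNA form. The windows named are the 12 largest positive and 10 largest negative called differences at promoters and 6 and 6 at gene bodies (mean count of at least 20, groups not overlapping), genes listed by name and, per list, the 2 of smallest p, of which a part is printed. XRN1, PHB2, NAS6, ERR3, PRM7, PRE10, RPN6, RPN12, tS(AGA)D1, FLO11 and DAL4 promoters, the DYN2, DCP1, TSC3, PRM7, SPS4 and GIN4 gene bodies, and the division by like inputs were chosen after values were seen. The MET17 promoter and the YNR077C gene body were also chosen after values were seen. The members and lists were chosen with earlier results of these data known.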

Additional observations from a re-analysis of the deposited data

Results flagged for a closer look

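Signal outside the comparison appeared in the inputs. The inputs of the Rvb1 and Pgk1 strains differed by over 1.5 times in 41 promoter windows, against 4 between the Rvb1 and Rvb2 inputs. In the gene body table it was 33 windows, against 4. Of the 41, 7 were higher in the Rvb1 strain and 34 lower, and of the 33, 8 were higher and 25 lower. Whether the strains came from different backgrounds was not tested, since the labels give 1 strain name for all.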

How the results depend on the processing

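The promoter count of 438 was 273 with DESeq2's test, 11 with a fold threshold of 1.5, 1708 with all 9 libraries, 0 relative to the own input (395 at an unadjusted p under 0.05, edgeR; no other tool was run), 182 without divergent neighbours, and 13 to 1067 with each library left out. It stayed within 1.5 times of 438 under library totals, DESeq2 size factors, 1 total for both tables, other filters, the 4 libraries alone, like inputs and a ceiling correction. The gene body count of 128 was 52, 20, 969 and 1 under the first 4 of these, 71 with like inputs, and 27 to 904 with each library left out. Rvb1 against Rvb2 gave 0 to 21 promoter and 0 to 12 gene body calls with each library left out, and 1 gene body at a mean count of at least 100. The replicate number shares no stated culture; deviations of same-numbered libraries correlated at 0.23 (Rvb1 and Pgk1), 0.73 (Rvb1 and Rvb2) and 0.35 (Rvb2 and Pgk1) over promoters and 0.39, 0.70 and 0.49 over gene bodies, with 2 replicate numbers only, and a replicate block gave 1517 promoter calls (659 higher, 858 lower) and 1475 gene body calls. Relative to the own input, fitted differences reversed at some windows with unlike inputs. For promoters they were -1.32 at LEU2, -0.32 at TIM9, -3.19 at YLR302C, 6.33 at YNR071C and 0.34 at YHL008C. For gene bodies they were -2.80 at MET17, -2.75 at URA3, -3.76 at LEU2, 3.41 at AIF1 and 4.65 at COS12. Several rest on few reads, such as Rvb1 inputs of 0 counts at YNR071C and 1 at AIF1 and COS12. Direction was kept at the YMR326C, YNR077C, ERR3 and PRM7 promoters (-0.15, -0.50, -0.41 and -0.41). The same held for the PRM7 and PAU19 gene bodies (-0.52 and -0.03). PGK1, not called, ran from -0.22 (without Pgk1 replicate 2) to 0.63 with each library left out. Of 1099 further values, 804 kept direction and side of the threshold, 271 lost the call, 13 gained one and 11 reversed; causes were not tested. Where depth limits precision, it is the 99 counts at the median promoter of Pgk1 replicate 1.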

Other observations

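Some calls formed short runs in the order in which the windows were deposited. That order was not checked against chromosome positions. The 146 promoters called higher fell into 110 runs, single windows included, and 28 of these held 2 or more windows. The 292 called lower fell into 237 runs, 39 of them with 2 or more. The longest run held 4 windows in each direction. At gene bodies the longest lower run held 6.

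Over all promoters 2.08% were called higher and 4.15% lower. Chromosome I had the lowest median log2 difference of the nuclear chromosomes at promoters, -0.17 over 120 windows, with 2 higher and 12 lower calls. Its inputs had a median log2 ratio of -0.02. Yet the lower calls included promoters with unlike inputs, such as YAR047C (input log2 ratio -8.65) and YAR075W (-2.09). How many of the 12 had unlike inputs is not given here. Chromosome IV had the highest, 0.05 over 840 windows.

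Windows whose identifiers were not matched to the gene table and lack the tRNA form were lower at 85 of 680 promoters (12.5%). Over all promoters the share was 4.15%, and the median of the unmatched windows was -0.40. Their median level was 92.3 and 115 CPM in the Rvb1 pulldowns, 103 and 122 in the Rvb2 pulldowns, and 129 and 133 in the Pgk1 pulldowns. Rvb1 replicate 1 was thus the lowest library. DESeq2's test gave 15 lower calls over all promoters, so most of the 85 were not called by it. Calls of this class with single libraries left out are not given here. At gene bodies 17 of 680 were lower (2.5%, against 1.24% of all gene bodies) and the median was 0.01.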
